A study of Mus musculus with 8 samples.

Results

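Retinoic acid signalling was examined through 10 genes that make, bind, sense or degrade retinoic acid. They are the retinoic acid receptors Rara, Rarb and Rarg, the retinaldehyde dehydrogenases Aldh1a1, Aldh1a2 and Aldh1a3, the retinoic acid hydroxylases Cyp26a1 and Cyp26b1, the retinol uptake receptor Stra6 and the cytosolic binding protein Crabp1. The genes were chosen by name for their roles, and all 10 were found among the 21058 genes of the RNA-seq tables. RNA was measured in pachytene spermatocytes enriched by Sta-Put gravity sedimentation from adult mouse testes on a CD1 background, with 4 libraries from Arid1a WT and 4 from Arid1a cKO males. Arid1a encodes a subunit of the BAF chromatin remodelling complex, and the series was made to ask how its loss alters transcription during pachynema. Arid1a cKO males carried Arid1a fl/fl and a Stra8-Cre transgene (Stra8-Cre Tg/0), which is expressed from spermatogonia onwards. Arid1a WT males carried Arid1a fl/fl or Arid1a fl/+ without Cre, so the floxed allele is shared by the genotypes and the transgene is not. Each preparation pooled the testes of several males. Fractions were kept where light microscopy showed mostly pachytene spermatocytes, so other cells can be present. The study describes Stra8-Cre excision as incomplete, so the cKO fractions also hold spermatocytes that kept Arid1a. The labels call the libraries biological replicates. The study describes replicate RNA extraction from frozen cell pellets. It does not say whether the 4 libraries of a genotype come from separate preparations.

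Retinoic acid is made from retinol in successive oxidations, first to retinaldehyde by alcohol and retinol dehydrogenases and then to retinoic acid by the ALDH1A enzymes. It binds nuclear receptors of the RAR family, which pair with retinoid X receptors (RXRs) on short direct repeats in DNA, and it is inactivated by CYP26 hydroxylases. In the testis, retinoic acid drives spermatogonial differentiation and the entry into meiosis through genes such as Stra8. Sertoli cells express Aldh1a1 and are a somatic source of retinoic acid in the tubule, whereas Aldh1a2 is the enzyme of spermatocytes.

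The sequences below are the only matches to an RAR-type element within the promoter windows of these genes, and they fall in the promoters of 2 genes that are textbook direct targets of retinoic acid. The windows are RefSeq sequences of GRCm38.p6 that run from 250 bases before to 50 bases after each annotated start. They were searched on both strands for direct repeats of AGGTCA or AGTTCA or GGGTCA or GGTTCA, in any pairing, spaced by 5 bases (DR5), 2 bases (DR2) or 1 base (DR1). Capitals mark the repeat units, and the printed strand is the minus strand of the genome in each case.
Rarb: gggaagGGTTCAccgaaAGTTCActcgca
Cyp26a1: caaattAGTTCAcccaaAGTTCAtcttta
Positions are counted from the start of the annotated transcript whose window holds the element, and in both genes that start lies inside the gene span given further on, which covers all transcripts. The Rarb stretch lies at chr14:16575507-16575535, with its element at positions -53 to -37, on the strand of the gene. The Cyp26a1 stretch lies at chr19:37697770-37697798, with its element at positions -32 to -16 and on the strand opposite to the gene. Counted from 1 at the 5′ end of the 17-base element, the Cyp26a1 element differs from that of Rarb by G1A and G9C. A DR5 was found in 31 of the 27025 genes with a window (32 of 32851 windows, 0.0974%), against 2 of the 9 members with a window and none of the 45 other pathway genes with a window. Because the members were chosen for their roles and both matches fall in textbook targets, these counts do not test an enrichment. No member had a DR1 or DR2, which were present in 0.222% and 0.268% of all windows. Aldh1a3 had no window in the table. A match shows only that the letters are present in the window, and a missing match says nothing about the binding of a receptor.

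In the libraries as a whole, total estimated counts ranged from 18308688 to 22044507 in Arid1a WT and from 15850961 to 21626772 in Arid1a cKO. The targeted gene Arid1a itself was measured at 98.8 to 128 CPM (counts scaled to library size) in Arid1a WT and at 76.4 to 82.9 CPM in Arid1a cKO, a log2 fold change of -0.51 ± 0.07 (SE, edgeR adjusted p = 2.31e-05). The gene-level count does not separate floxed from excised transcripts. Of 17643 genes tested, 13048 (74.0%) were called at an adjusted p of 0.05, with 6435 (36.5%) higher and 6613 (37.5%) lower in Arid1a cKO. The libraries of the 2 genotypes did not overlap for 12152 genes (68.9%). Most transcripts therefore differed between these fractions, and the retinoic acid genes have to be read against that background. Of the calls, 49.3% were higher in Arid1a cKO, against 45.3% in limma on log2(TPM + 1) and 38.9% in the same limma fit with the TPM of the listed genes rescaled to the same total in every library. Markers of pachytene spermatocytes were present in every library, with a summed abundance of 7520 to 8630 TPM in Arid1a WT and 6500 to 6860 TPM in Arid1a cKO. Of these 8 markers, 4 were called higher and 4 lower. The piRNA-pathway gene Piwil1 was the member of that list with the largest difference, at 1600 ± 44.2 CPM in Arid1a WT and 109 ± 3.16 CPM in Arid1a cKO (SD, n = 4 each).

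Among the 10 retinoic acid genes, 3 were called higher in Arid1a cKO (Rarb, Rarg and Crabp1), 4 were called lower (Aldh1a1, Aldh1a2, Cyp26a1 and Stra6), and Rara, Aldh1a3 and Cyp26b1 did not pass the test. The 7 calls compare with 74.0% of all genes, so as a group these genes were called about as often as any other. The libraries of the genotypes did not overlap for 7 of the 10, beside 68.9% of all genes. The median size of their log2 fold changes, regardless of sign, was 0.79, beside 0.76 for all genes tested. The direction and level of each gene are given below. CPM is used for the fold changes and tests between genotypes. TPM, a value scaled to transcript length, is used for levels between genes and for sums and shares over several genes. The sums are set side by side for the genotypes without a test, and the TPM of the genes listed adds up to a smaller total in Arid1a WT (780735 to 811443) than in Arid1a cKO (880901 to 886412).

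**Figure D1:**
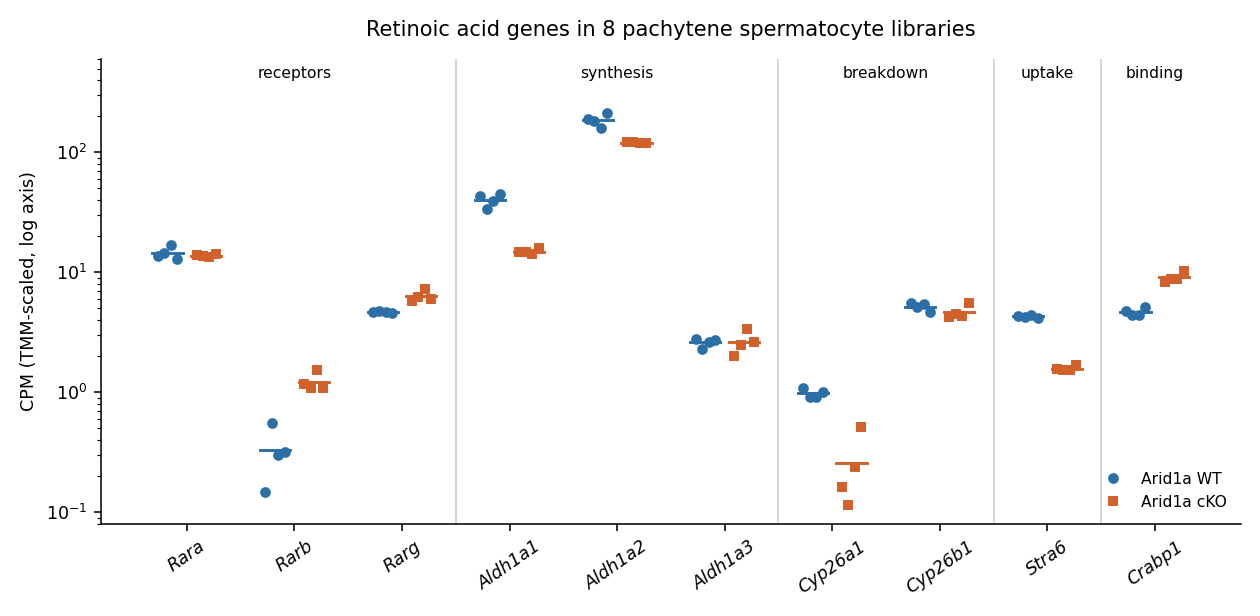
CPM on a log axis of each retinoic acid gene in the 4 Arid1a WT libraries (circles) and the 4 Arid1a cKO libraries (squares), with horizontal lines at the means. The genotypes separate completely for Rarb, Rarg, Aldh1a1, Aldh1a2, Cyp26a1, Stra6 and Crabp1 and overlap for Rara, Aldh1a3 and Cyp26b1.

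By level, Aldh1a2 was the most abundant of these transcripts in either genotype, at 127 ± 10.7 TPM in Arid1a WT and 74.9 ± 0.495 TPM in Arid1a cKO (SD, n = 4 each). In Arid1a WT it was followed by Aldh1a1 at 31.3 ± 3.4 TPM, and then by Crabp1 (10.5 ± 0.341 TPM) and Rara (10.5 ± 3.57 TPM), whose ranges overlapped. Rarg (2.83 TPM) overlapped with Stra6 (2.42 TPM), and Aldh1a3 (2.09 TPM) with Cyp26b1 (1.78 TPM). Cyp26a1 (0.891 TPM) and Rarb (0.242 TPM) were the lowest and stood apart from their neighbours. In Arid1a cKO, Crabp1 held the second place at 18.6 ± 1.94 TPM, above Aldh1a1 (10.7 ± 0.704 TPM) and Rara (10.6 ± 1.88 TPM), which overlapped. Rarg (3.27 TPM), Aldh1a3 (2.44 TPM), Cyp26b1 (1.43 TPM) and Rarb (1.28 TPM) each overlapped with the next gene in that order, down to Stra6 (0.735 TPM). Cyp26a1 was last at 0.207 ± 0.144 TPM. Rarb and Cyp26a1, the genes with a DR5 in their promoter window, thus exchanged the lowest place between the genotypes.

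The receptors are taken first. Rara, a receptor without which male mice are sterile, lies at chr11:98927800-98974942 (GRCm38). Its values were 13.6, 14.6, 17.0 and 12.9 CPM in Arid1a WT and 13.9, 13.6, 13.3 and 14.3 CPM in Arid1a cKO. The ranges overlapped, the cKO values lying within the spread of the WT libraries. The log2 fold change was -0.07 ± 0.09 (SE, adjusted p = 0.452; exact two-sided permutation p = 0.629). The sign of this small difference turned with offsets for transcript length (0.13), in limma on TPM (0.05 and 0.06) and without Arid1a WT replicate 3 (0.01). On rescaled TPM the sign did not turn (-0.09).

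Rarb (chr14:16430839-17082331), a receptor whose own transcription is induced by retinoic acid in many cell types, was measured at 0.148, 0.549, 0.301 and 0.318 CPM in Arid1a WT and at 1.18, 1.08, 1.53 and 1.09 CPM in Arid1a cKO. Every cKO library was above every WT library, although the counts were small, with 3 to 12 estimated reads per WT library and 17 to 32 per cKO library. Rarb rose by a log2 fold change of 1.87 ± 0.32 (SE), a 3.66-fold difference (adjusted p = 0.00011; exact permutation p = 0.0286, the smallest that 4 against 4 libraries allow). With offsets for transcript length the log2 fold change was 2.55, since the estimated mean transcript length of Rarb was shorter in 3 of the 4 cKO libraries (0.668 to 0.7 of its average over the libraries, and 1.14 in the fourth) than in WT (0.794 to 1.79). Exons of Rarb overlap those of Top2b and Gm48162 on the opposite strand in the annotation, and whether counting used the strand of the reads is not given in the sources used here, so if it did not, reads from the overlapping stretch alone could not be assigned to either strand. Top2b, a DNA topoisomerase, was at 22.0 ± 1.26 CPM in Arid1a WT and 32.4 ± 1.8 CPM in Arid1a cKO (log2 fold change 0.56 ± 0.06, adjusted p = 1.49e-06). Per length, Top2b was at 7.28 ± 0.798 TPM in WT and 7.94 ± 1.56 TPM in cKO, and its call was lost with length offsets (0.22, adjusted p = 0.175). Its part in the Rarb values was not tested.

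Rarg (chr15:102234938-102257522), the isotype of undifferentiated spermatogonia that respond to retinoic acid, was at 4.65, 4.71, 4.67 and 4.59 CPM in Arid1a WT and at 5.71, 6.17, 7.23 and 6.04 CPM in Arid1a cKO. The cKO libraries all lay above the WT libraries, which differed among themselves by little. The log2 fold change was 0.44 ± 0.1 (SE, adjusted p = 0.00174, exact permutation p = 0.0286). This call was lost with offsets for transcript length (0.31, adjusted p = 0.0646) and in limma on log2(TPM + 1) (0.15, adjusted p = 0.243). Of the spermatogonial markers, 7 of 8 were called higher in Arid1a cKO and 1 lower, beside 36.5% and 37.5% of all genes. Zbtb16 (8.83 ± 1.21 against 14.9 ± 1.11 CPM) and Gfra1 (4.99 ± 0.388 against 6.17 ± 0.518 CPM) were among the higher ones, while Id4 fell from 90.3 ± 3.34 to 14.4 ± 0.361 CPM. The summed abundance of that list was 106 to 116 TPM in WT and 103 to 112 TPM in cKO, and across the alternatives 3 to 7 of its markers were called higher. The part of spermatogonia in the Rarg values was not tested. In a bulk fraction, more cells of a type and more RNA per cell cannot be told apart.

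Within the RAR family Rara supplied most of the transcripts per length, with 76.3% ± 5.32 of the summed TPM in Arid1a WT and 69.7% ± 6.2 in Arid1a cKO (SD, n = 4 each). Rarg supplied 21.8% ± 4.62 and 21.7% ± 3.62. The share of Rarb was 0.654% to 3.58% across the WT libraries and 5.84% to 12.2% across the cKO libraries, without overlap. The summed RAR abundance was 9.44 to 18.1 TPM in WT and 13.8 to 17.9 TPM in cKO, and these ranges overlapped.

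Of the enzymes that make retinoic acid, Aldh1a1 and Aldh1a2 fell and Aldh1a3 did not pass the test. Aldh1a2 (chr9:71215789-71296243), the principal retinaldehyde dehydrogenase of meiotic germ cells, was at 191, 181, 161 and 211 CPM in Arid1a WT and at 123, 121, 120 and 119 CPM in Arid1a cKO. The WT libraries varied more than the cKO libraries, and the lowest WT value was above the highest cKO value. Aldh1a2 fell by 0.62 on the log2 scale (SE 0.07, adjusted p = 1.23e-06; exact permutation p = 0.0286), a 1.54-fold difference. Rescaled TPM gave a larger difference, at -0.9.

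Aldh1a1 (chr19:20492583-20643463), the retinaldehyde dehydrogenase of Sertoli cells, was at 43.0, 33.7, 39.0 and 45.3 CPM in Arid1a WT and at 14.8, 14.7, 14.2 and 15.8 CPM in Arid1a cKO. All cKO values lay below all WT values, and they were close to each other. Aldh1a1 fell by 1.44 on the log2 scale (SE 0.09, adjusted p = 1.55e-09; exact permutation p = 0.0286), a 2.71-fold difference. Of the words of 31 bases in its transcripts, 5.7% also occur in transcripts of other genes, so a small part of its reads could be shared with a relative.

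Markers of Sertoli cells moved in the same direction as Aldh1a1. All 10 markers on that list were called lower in Arid1a cKO, beside 37.5% of all genes. Their log2 fold changes ran from -2.54 to -0.7, with a median of -1.51. Their summed abundance was 375 to 447 TPM in WT and 101 to 107 TPM in cKO. Sox9 and Wt1, which specify and maintain Sertoli cells, were at 13.8 ± 1.34 and 23.5 ± 3.33 CPM in WT and at 5.52 ± 0.345 and 8.13 ± 0.927 CPM in cKO. Leydig cell markers were lower for 6 of 7, with a median log2 fold change of -2.94 and a summed abundance of 78.7 to 92.2 TPM in WT and 7.27 to 8.91 TPM in cKO. The steroidogenic enzyme Cyp17a1, for example, was at 17.9 ± 1.68 CPM in WT and 1.67 ± 0.154 CPM in cKO. No marker on either list was at 0 in all libraries. The part of these somatic cells in the Aldh1a1 values, and in those of Aldh1a2, was not tested.

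Aldh1a3 (chr7:66390892-66427477), the third enzyme of the family, was at 2.77, 2.29, 2.61 and 2.73 CPM in Arid1a WT and at 1.99, 2.46, 3.35 and 2.63 CPM in Arid1a cKO. The cKO libraries spread on either side of the WT libraries. The log2 fold change was 0.01 ± 0.17 (SE, adjusted p = 0.954; exact permutation p = 0.971), and its sign depended on the scaling and on single libraries.

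Within the ALDH1A family, Aldh1a2 supplied 79.1% ± 1.93 of the summed TPM in Arid1a WT and 85.1% ± 0.894 in Arid1a cKO, and its lowest cKO share (84.5%) was above its highest WT share (81.7%). The share of Aldh1a1 was 19.6% ± 1.8 in WT and 12.1% ± 0.708 in cKO, also without overlap, and that of Aldh1a3 was 1.31% ± 0.151 and 2.77% ± 0.806. The summed abundance of the family was 148 to 177 TPM in WT and 86.6 to 89.1 TPM in cKO. Most of the fall in the family's transcripts per length came from Aldh1a2, although Aldh1a1 had the larger fold change.

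**Figure D2:**
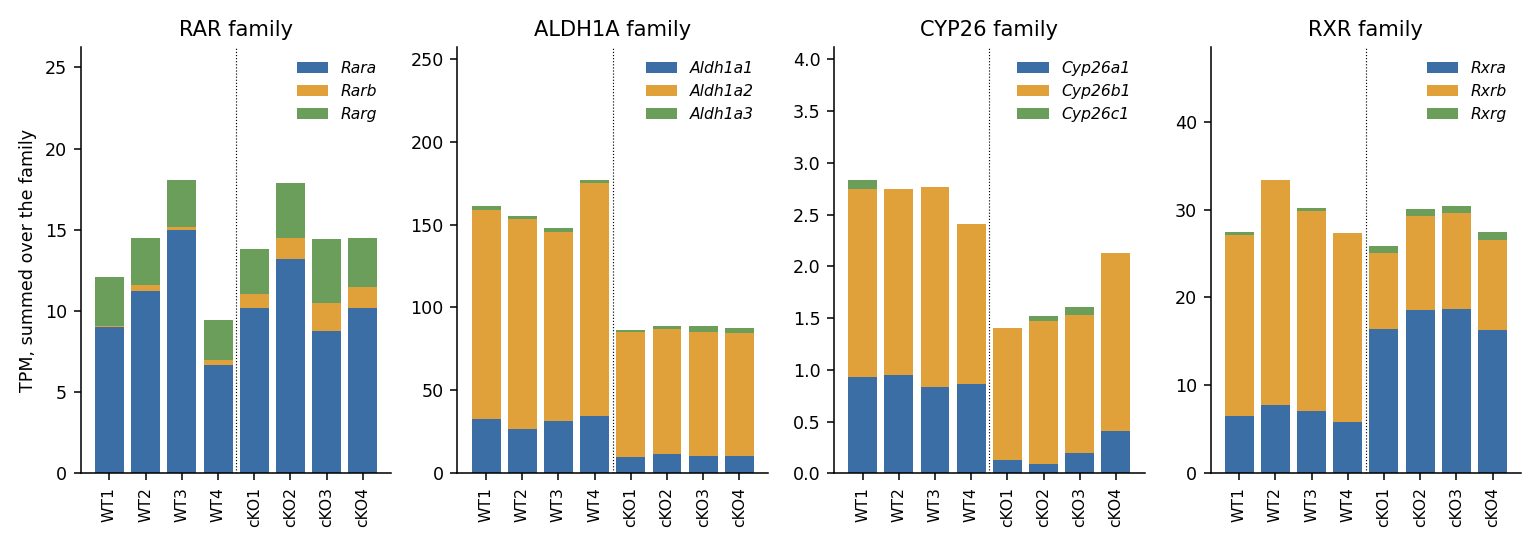
Summed TPM of the RAR, ALDH1A, CYP26 and RXR families in each library, with the part of each gene as a stacked block and a dotted line between genotypes. The ALDH1A sum is lower in every Arid1a cKO library, and the RXR sum overlaps between genotypes while its main gene changes from Rxrb to Rxra.

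The hydroxylases that clear retinoic acid were both low. Cyp26a1 (chr19:37697738-37701536), a gene that retinoic acid itself induces in many cell types, was at 1.09, 0.915, 0.903 and 1.0 CPM in Arid1a WT and at 0.161, 0.114, 0.239 and 0.514 CPM in Arid1a cKO. The WT libraries held 18 to 22 estimated reads and the cKO libraries 2 to 8, with no overlap. Cyp26a1 fell by 1.94 on the log2 scale (SE 0.36, adjusted p = 0.000227; exact permutation p = 0.0286), a 3.84-fold difference that rests on few reads. Without Arid1a cKO replicate 4, the highest of the cKO libraries, the log2 fold change was -2.44. Rarb and Cyp26a1 both carry a DR5 in their promoter window, and they moved in opposite directions.

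Cyp26b1 (chr6:84571414-84593908), the hydroxylase that protects fetal male germ cells from retinoic acid, was at 5.49, 5.12, 5.42 and 4.69 CPM in Arid1a WT and at 4.2, 4.45, 4.31 and 5.53 CPM in Arid1a cKO. In Arid1a cKO, 3 libraries were below all WT libraries and replicate 4 was above them. The log2 fold change was -0.17 ± 0.12 (SE, adjusted p = 0.211; exact permutation p = 0.171). A fall was called only in limma on rescaled TPM (-0.31, adjusted p = 0.0209), an alternative chosen after seeing the data. The remaining hydroxylase, Cyp26c1, had 0 to 2 estimated reads in any library and was not tested in the main analysis.

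Within the CYP26 family, Cyp26b1 made up 66.0% ± 2.72 of the summed TPM in Arid1a WT and 86.3% ± 5.35 in Arid1a cKO. Cyp26a1 made up 30.0% to 35.7% across the WT libraries and 6.07% to 19.4% across the cKO libraries. The summed abundance of the family was 2.41 to 2.84 TPM in WT and 1.41 to 2.13 TPM in cKO, so that it stood far under that of the ALDH1A family in either genotype.

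Stra6 (chr9:58063793-58154004), the membrane receptor through which cells take up retinol from its carrier in plasma, was at 4.35, 4.21, 4.41 and 4.14 CPM in Arid1a WT and at 1.56, 1.54, 1.53 and 1.67 CPM in Arid1a cKO. The libraries within each genotype were close together and the genotypes were far apart. Stra6 fell by 1.44 on the log2 scale (SE 0.13, adjusted p = 1.31e-07; exact permutation p = 0.0286), a 2.71-fold difference. The medians of the Sertoli and Leydig cell markers given above moved in the same direction, and their part in the Stra6 and Cyp26a1 values was not tested.

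Crabp1 (chr9:54764748-54773110), which holds retinoic acid in the cytosol, was at 4.75, 4.44, 4.41 and 5.1 CPM in Arid1a WT and at 8.23, 8.85, 8.8 and 10.3 CPM in Arid1a cKO. Every cKO library was above every WT library. Crabp1 rose by a log2 fold change of 0.95 ± 0.1 (SE, adjusted p = 8.13e-07; exact permutation p = 0.0286), a 1.93-fold difference. Its relative Crabp2, which delivers retinoic acid to the receptors, was near the limit of detection at 0.202 ± 0.0555 CPM in WT and 0.14 ± 0.101 CPM in cKO (log2 fold change -0.53 ± 0.57, adjusted p = 0.412).

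**Figure D3:**
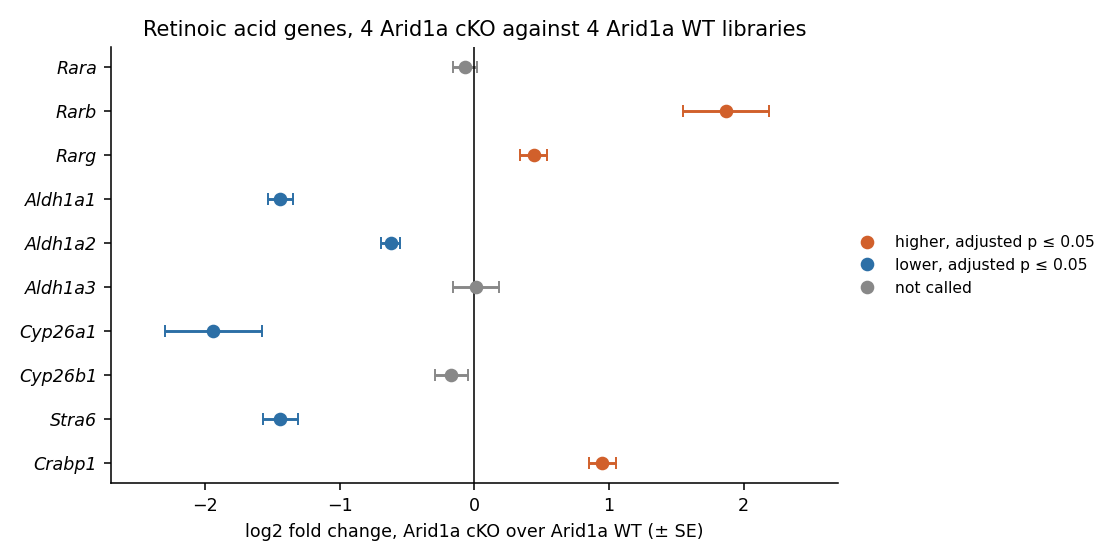
Log2 fold change of Arid1a cKO over Arid1a WT for each retinoic acid gene, with its standard error from the edgeR fit and the call in colour. Rarb, Rarg and Crabp1 lie to the right of 0 and Aldh1a1, Aldh1a2, Cyp26a1 and Stra6 to the left.

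Marker transcripts of germ cells at other stages also differed between the fractions. Of all genes tested, 36.5% were called higher and 37.5% lower, and the marker counts stand beside these shares. All 10 spermatid markers were called higher in Arid1a cKO, with log2 fold changes from 1.79 to 2.39. Their summed abundance was 6040 to 6890 TPM in WT and 24600 to 26600 TPM in cKO. Of 6 markers of preleptotene to zygotene spermatocytes, 5 were called higher and 1 lower, with a summed abundance of 44.3 to 51.6 TPM in WT and 77.8 to 80.8 TPM in cKO. The recombinase Dmc1 was at 4.65 ± 0.452 CPM in WT and 18.3 ± 1.42 CPM in cKO, and the hotspot methyltransferase Prdm9 at 3.4 ± 1.18 and 11.2 ± 0.469 CPM. Peritubular myoid markers were higher for 4 of 5 (median 0.53; 1 to 4 across the alternatives), macrophage markers were higher for 5 and lower for 1 of 7 (median 1.48), and endothelial markers were higher for 2 and lower for 1 of 4 (median 0.26). The summed abundance of each of these 3 lists was under 15 TPM in every library. The part of any of these cells in the Rarb, Rarg and Crabp1 values was not tested.

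**Figure D4:**
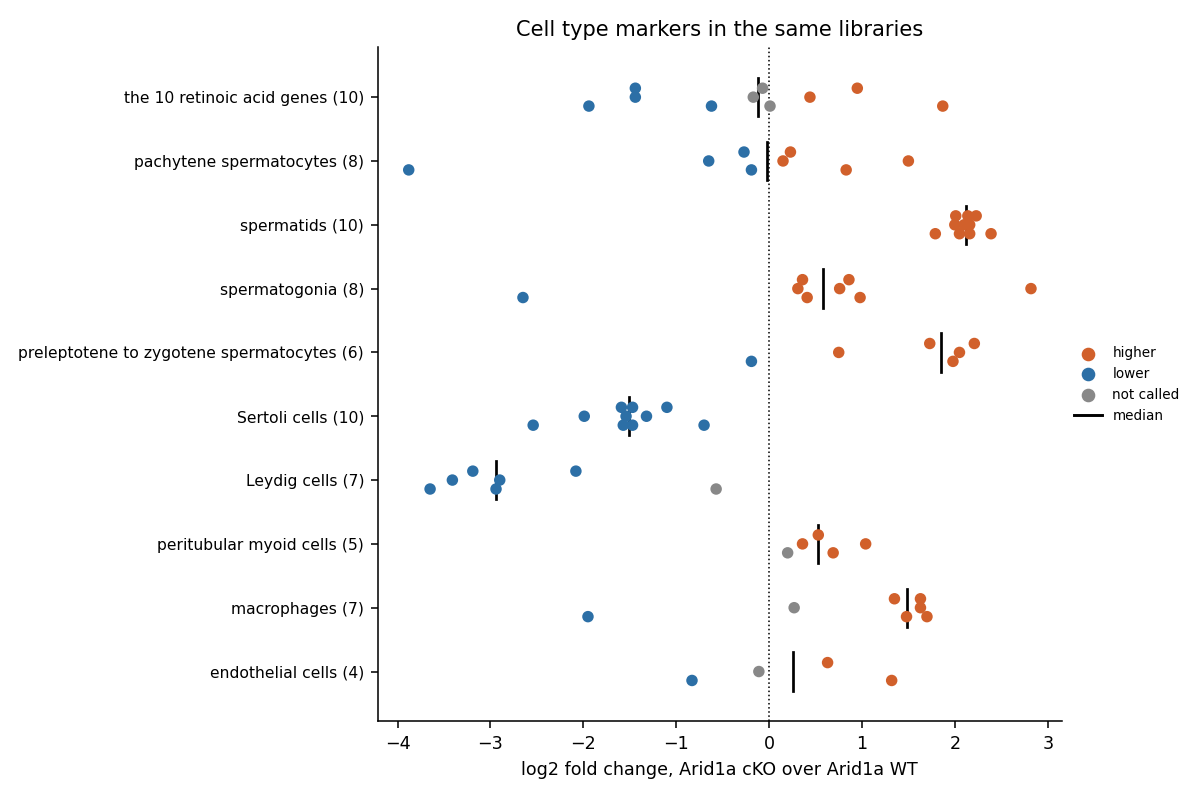
Log2 fold change of Arid1a cKO over Arid1a WT for each marker gene, by cell type, with the retinoic acid genes in the top row, the number of tested genes in brackets and a black line at each median. Spermatid markers lie between 1.79 and 2.39 and Sertoli cell markers between -2.54 and -0.7.

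The wider retinoid pathway was covered by a list of 60 other genes, of which 56 had enough reads to be tested. Of these, 25 were called higher and 17 lower in Arid1a cKO, and 14 did not pass the test. The split was 21 higher and 19 lower without TMM, and 19 and 18 on rescaled TPM. The 42 calls (beside 74.0% of all genes) and the median log2 fold change of 0.02 (beside -0.02 for all genes) do not set the list apart.

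The partners of the receptors changed places. Rxra was at 11.4, 12.7, 11.9 and 11.3 CPM in Arid1a WT and at 28.3, 30.1, 31.6 and 26.8 CPM in Arid1a cKO, a rise by a log2 fold change of 1.3 ± 0.07 (SE, adjusted p = 4.2e-10). Rxrb was at 29.6, 33.2, 29.6 and 32.3 CPM in WT and at 14.2, 17.6, 18.1 and 17.0 CPM in cKO, and it fell by 0.9 on the log2 scale (SE 0.08, adjusted p = 8.61e-08). Neither gene overlapped between the genotypes. Per length, Rxra held 23.0% ± 1.1 of the family's summed TPM in WT and 61.5% ± 1.78 in cKO, and Rxrb 76.4% ± 1.61 and 35.5% ± 1.61. The summed RXR abundance was 27.4 to 33.4 TPM in WT and 25.8 to 30.4 TPM in cKO, with overlap. Rxrg was rare in either genotype and rose from 0.21 ± 0.191 to 1.0 ± 0.107 CPM (log2 fold change 2.25 ± 0.46, adjusted p = 0.000519).

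Of 10 genes of retinol uptake, binding and storage, 5 were called higher and 3 lower, beside 36.5% and 37.5% of all genes. Lrat, which esterifies retinol for storage, rose from 9.51 ± 1.19 to 18.8 ± 1.4 CPM (log2 fold change 0.98 ± 0.09, adjusted p = 2.03e-07). Rbp4, the plasma carrier of retinol, rose from 1.4 ± 0.174 to 3.35 ± 0.651 CPM (1.26 ± 0.18, adjusted p = 1.91e-05). Among its called genes with a mean log2 CPM of at least 1, the largest rise was that of Bco1, which cleaves beta-carotene to retinaldehyde, from 8.84 ± 0.875 to 42.4 ± 0.679 CPM. The largest fall within the same limit was that of Dgat1, an acyltransferase that can also esterify retinol, from 172 ± 4.77 to 73.9 ± 3.2 CPM.

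Of 16 tested genes of retinol and retinaldehyde interconversion, 5 were called higher, 6 lower and 5 did not pass. Of all genes tested, 36.5% were called higher and 37.5% lower. Rdh10, the retinol dehydrogenase that produces retinaldehyde for retinoic acid synthesis, rose from 4.91 ± 0.698 to 10.3 ± 0.597 CPM (log2 fold change 1.06 ± 0.11, adjusted p = 4.35e-07), in the direction opposite to Aldh1a1 and Aldh1a2. Dhrs3, a reductase that turns retinaldehyde back to retinol, was called lower (1.76 ± 0.269 against 1.05 ± 0.561 CPM, adjusted p = 0.0435), but its libraries overlapped between genotypes and its exact permutation p was 0.114. Dhrs3 lost its call in DESeq2 (-0.7, adjusted p = 0.0699) and, among others, with length offsets (-0.43, adjusted p = 0.269). Dhrs4, another reductase, was called higher on counts (log2 fold change 0.32 ± 0.07, adjusted p = 0.00114), but this call was lost with offsets for transcript length (0.13, adjusted p = 0.153) and in limma on log2(TPM + 1) (0.04, adjusted p = 0.636), and the sign turned on rescaled TPM (-0.11). Among called genes of this set with a mean log2 CPM of at least 1, Adh7 had the largest rise, from 2.1 ± 0.367 to 10.7 ± 0.803 CPM, and the reductase Rdh11 the largest fall, from 545 ± 61.0 to 263 ± 12.4 CPM. Fabp5, which can carry retinoic acid to another nuclear receptor, was called lower (-0.63 ± 0.19, adjusted p = 0.00823) with overlapping libraries.

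Of 13 receptor coregulators, 6 were called higher and 4 lower, beside 36.5% and 37.5% of all genes, and 3 did not pass. This split turned with the scaling, to 3 higher and 6 lower without TMM and to 4 higher and 5 lower on rescaled TPM. Within the same limit on abundance, the acetyltransferase Kat2b had the largest rise, from 17.9 ± 0.937 to 79.0 ± 6.37 CPM (log2 fold change 2.15 ± 0.07, adjusted p = 8.55e-13). The deacetylase Hdac3, part of the corepressor complex of unliganded receptors, had the largest fall, from 58.7 ± 0.944 to 38.4 ± 1.26 CPM (-0.61 ± 0.05, adjusted p = 2.34e-08). The corepressor Ncor1 gave -0.03 ± 0.05 and did not pass.

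All 6 genes listed as responsive to retinoic acid in germ cells were called higher in Arid1a cKO, beside 36.5% of all genes, and 4 to 6 of them were called higher, with none lower, across the alternatives (Sall4 was slightly below 0, without a call, in the limma fits of TPM). Stra8, which is required for entry into meiosis, was at 12.5, 12.4, 12.5 and 14.1 CPM in Arid1a WT and at 21.7, 21.8, 22.3 and 21.1 CPM in Arid1a cKO, a rise by a log2 fold change of 0.75 ± 0.07 (SE, adjusted p = 8.84e-08). Rec8, a meiotic cohesin subunit, had the largest rise of the set, from 20.8, 23.5, 26.2 and 24.6 CPM to 132, 136, 138 and 131 CPM (2.5 ± 0.06, adjusted p = 1.18e-13). Kit, the receptor of differentiating spermatogonia, rose from 14.7 ± 0.752 to 28.9 ± 0.943 CPM (0.98 ± 0.06, adjusted p = 2.08e-09). Stra8 and Bhmg1 are also on the list of preleptotene to zygotene markers, and Kit and Sohlh1 on that of spermatogonia, so these counts are not separate from those given above. Among 9 tested genes responsive to retinoic acid in other tissues, 1 was called higher, 4 were lower, with the largest fall, within the same limit, for the homeobox gene Meis1 (-1.3 ± 0.17, adjusted p = 8.95e-06), and 4 did not pass, beside 74.0% of all genes called in either direction. Across the alternatives 2 to 4 of this set were called lower, with 2 in DESeq2.

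**Figure D5:**
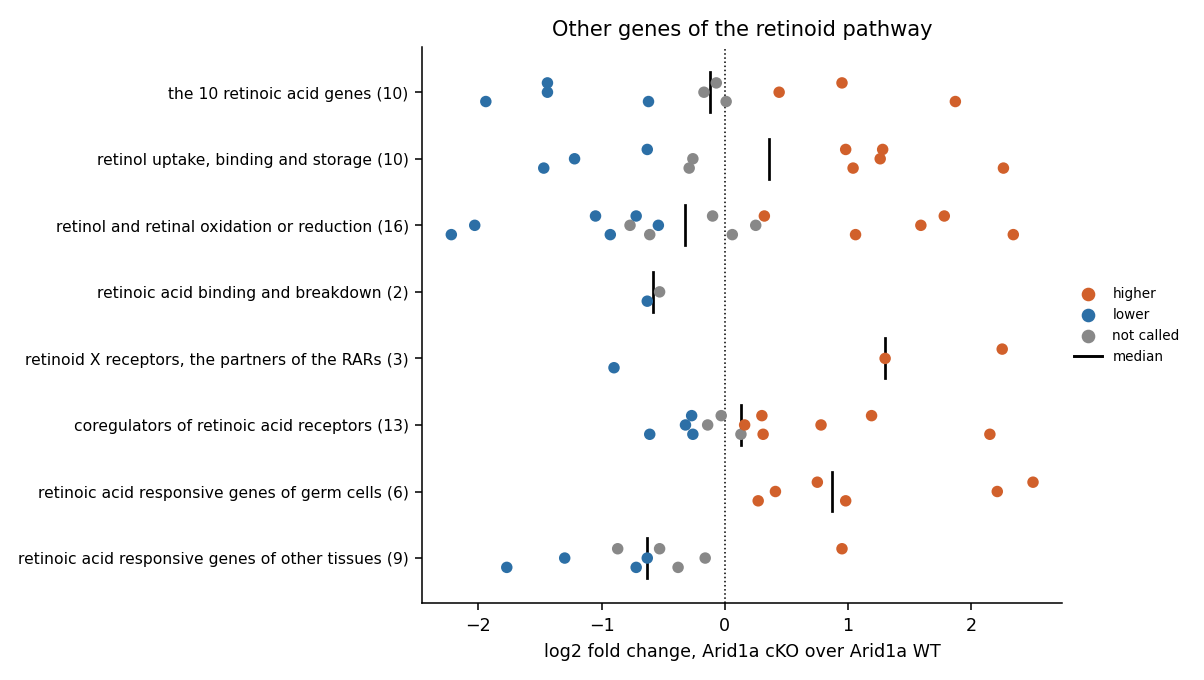
Log2 fold change of Arid1a cKO over Arid1a WT for the other retinoid pathway genes by function, with the retinoic acid genes in the top row, the number of tested genes in brackets and a black line at each median. In this edgeR fit the genes responsive to retinoic acid in germ cells all lie to the right of 0, and most other sets spread to either side.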

How the data were processed

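The authors ran Salmon on 50-base paired-end reads and used tximport to obtain values per Entrez gene on mm10 (versions not given in the sources used here). They deposited estimated counts per gene and TPM per gene for the 4 Arid1a WT and 4 Arid1a cKO libraries. A further deposited table holds the authors' own DESeq2 comparison and was not used. Of 21058 Entrez identifiers, 21036 matched a RefSeq record (GRCm38.p6), which gave symbols and coordinates.

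Estimated counts were rounded and tested in edgeR 4.0.16 (R 4.3.3; TMM scaling, quasi-likelihood test, genes with at least 10 counts summed over 8 libraries, Benjamini-Hochberg adjustment over the 17643 genes tested, threshold 0.05). Standard errors are the log2 fold change over the square root of F. Exact permutation tests used all 70 assignments of the libraries to 2 groups of 4, on log2 CPM. The fit was tested on simulated data. TPM served for levels between genes, for sums and shares over gene families and marker lists (given per genotype without a test) and for the limma alternatives. The summed TPM of the genes listed differs between the genotypes, so TPM differences between them carry another base than CPM. No pair of libraries of a genotype agreed within sampling noise. p-values measure the spread between these libraries. Whether this is a spread between separate preparations is not stated in the sources used here.

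The genes studied, the pathway list and the cell type markers (9 lists) were chosen with earlier results of these data known. All members are named with every library. Other pathway genes are named by a rule: the retinoid X receptors, Crabp2, Fabp5, Cyp26c1, Rbp4, Lrat, Rdh10, Rdh11, Dhrs3, Dhrs4, Stra8, Rec8 and Kit, and the largest rise and fall among called genes of each set whose mean log2 CPM reached 1. Some genes that the rule names are not reported here. Ncor1, Sall4, Bhmg1, Sohlh1, Top2b and the named markers fall outside it and were chosen after their values were seen. Alternatives comprised DESeq2 1.42.0, other scalings and filters, transcript-length offsets, limma 3.58.1 on log2(TPM + 1) and log2(TPM + 0.1), a replicate block, and leaving out each library. For the numbers of genes called, a stricter threshold of 0.01 was a further alternative. Figures were drawn in matplotlib.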

Additional observations from a re-analysis of the deposited data

Results flagged for a closer look

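In 3 of 64 groups of 4 libraries, 1 library stood apart from the other 3 by Dixon's test on CPM. The test covered 32 genes, the 10 retinoic acid genes and the named pathway genes, in each genotype, and chance alone gives about 3.2 such groups. No retinoic acid gene was among them. Stra8 in Arid1a WT replicate 4 was at 14.1 CPM, above 12.4 to 12.5 CPM in the other WT libraries (gap over range 0.952). Bco1 in Arid1a WT replicate 4 was at 10.1 CPM, above 8.32 to 8.53 CPM (0.887). Hdac3 in Arid1a WT replicate 2 was at 57.3 CPM, below 59.0 to 59.3 CPM (0.87). Each gap is small beside the difference between the genotypes for the same gene.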

How the results depend on the processing

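Under 20 alternatives, the number of genes called stayed between 11671 and 13135 (13048 in the main analysis), that of retinoic acid genes between 6 and 7, and that of other pathway genes between 37 and 43. The 11671 came from the main fit at a stricter adjusted p of 0.01. At 0.05 the fewest genes called were 12315, in limma on log2(TPM + 1). Rarb, Aldh1a1, Aldh1a2, Cyp26a1, Stra6 and Crabp1 kept their direction and their call in all 19 alternatives run for single genes. Rarg lost its call with transcript-length offsets (0.31), in limma on log2(TPM + 1) (0.15) and log2(TPM + 0.1) (0.19), and on rescaled TPM, which was added once the data were known (0.04). On that last setting Cyp26b1 was called lower (-0.31). Rara, which was never called, changed sign with length offsets (0.13) and in limma on log2(TPM + 1) and log2(TPM + 0.1) (0.05 and 0.06). On rescaled TPM Rara kept its sign (-0.09), and it ranged from -0.11 to 0.01 when single libraries were left out. Aldh1a3, also never called, changed sign without TMM (-0.09) and under the replicate block (-0.002), and ranged from -0.14 to 0.12 when single libraries were left out. The cause of these changes was not tested. For the low genes Rarb and Cyp26a1, limma on log2(TPM + 1) gave 0.87 and -0.66, because the pseudocount compresses low values. Without TMM the median log2 fold change of all genes moved from -0.02 to -0.12. The replicate numbers do not pair the libraries (correlations of deviations for equal numbers 0.162, 0.0125, 0.0852 and -0.137), and with the number as a replicate block 13100 genes were called. Depth limits Rarb, Cyp26a1, Crabp2 and Rxrg most, and Cyp26c1 was too low to pass the filter of the main analysis.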
